A study of Anser cygnoides with 18 samples.

Results

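The lysosome is the acidic compartment in which cells break down proteins, glycans, lipids and worn-out organelles, and 60 of its genes were described here in liver, abdominal adipose (AA) and subcutaneous adipose (SA) of geese fed for fattening. The genes were chosen by name: a list of 40 symbols of lysosomal enzymes, membrane proteins and regulators, all genes whose symbol in the goose annotation begins with ATP6V, and all genes named CTS followed by a single letter. Of the 40 listed symbols, 32 were in the annotation and 8 were not found under that symbol (*CD63*, *CLN3*, *LIPA*, *SMPD1*, *PSAP*, *NEU1*, *MAN2B1* and *MITF2*). The ATP6V pattern gave 17 genes and the CTS pattern 11, and all 60 members were among the 14628 mRNAs of the expression table. By role they were 8 genes of the V0 sector and 9 of the V1 sector of the proton pump, 13 proteases, 10 enzymes of glycan breakdown, 8 genes of lipid breakdown, 6 membrane proteins and 6 genes of sorting and regulation. The animals were Tianfu geese, a commercial meat breed, killed at 145 days of age after an overnight fast. The high-intake geese (T1, T2 and T3) were force fed, with meals that grew in size over the trial and in number until its last day. The control geese (C1, C2 and C3) ate freely. The feeding comparison thus holds both the larger intake and the force feeding, which the design does not separate. Both groups received the same diet. Total RNA of all 3 tissues of each of these 6 geese was sequenced after removal of ribosomal RNA, which gave 18 libraries, 3 per tissue and feeding group. Each library is named by its goose and tissue, with L for liver.

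As background, the vacuolar ATPase (V-ATPase) pumps protons into the lysosome. Its V1 sector in the cytosol splits ATP, and its V0 sector in the membrane carries the protons. The acid activates cathepsins and the hydrolases that digest glycans and sphingolipids, which reach the lysosome from the Golgi by way of mannose 6-phosphate receptors. Heavily glycosylated proteins such as LAMP1 and LAMP2 line the membrane. The factor TFEB is known in mammals to switch on many lysosomal genes when nutrients are scarce. In fat-storing cells, lysosomes take part in the turnover of lipid droplets and lipoproteins, and in macrophages they are abundant.

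Values are FPKM, counts of fragments scaled by transcript length and by the mapped fragments of the library, so that genes of unlike length can be compared. They carry no counts, and the depth behind each value is unknown. In the tests a change is a difference of log2(FPKM + 1), which understates the change of weakly expressed genes, and a gene is called at an adjusted p under 0.05 in limma's moderated test over all genes tested. All genes together summed to 387525 to 438339 FPKM in a liver library. Adipose sums ran over 221093 to 394709 FPKM, except for C2-SA with 107522 FPKM, in which most members had their lowest adipose value. The tissue labels were checked against markers. Hepatocyte markers (8 of 10 found) summed to between 15930.0 and 30150.0 FPKM per liver and to at most 2909 FPKM in adipose, the highest being T3-AA (2909) and C1-SA (1057). Adipocyte markers (5 of 8) summed to 394 FPKM in T1-L, 330.1 in T3-L and 29.1 to 88.5 in the other livers, against 465 FPKM in C2-SA and 952 to 3076 in the other adipose libraries. The sums of T1-L and T3-L were mostly *PCK1*, at 383 and 319 FPKM, a gene at no more than 4.35 FPKM in adipose. *PLIN1* and *ADIPOQ* were at most 2.46 and 0.384 FPKM in any liver. Markers of skin (7 of 10) summed to 1.63 to 8.73 FPKM in liver and 22.5 to 189 in adipose. The adipose sums were almost all *PPL*, at 21.2 to 188 FPKM, and each other skin marker was at most 1.91 FPKM there. Of those others, *TP63* was highest in C2-SA (0.784 FPKM) and *DSP*, within adipose, in T2-AA (1.91). Within SA all of those others were highest in C2-SA, from 0.0849 FPKM for *PKP3* to 0.784 FPKM for *TP63*. In AA, *DSG2* and *PKP1* in T2-AA (1.01 and 0.729 FPKM) and *EVPL* and *PKP3* in C1-AA (1.64 and 0.154 FPKM) were higher still. The paper proposes that C2-SA partly held other tissue such as skin. Whether any library held skin was not tested. Markers of skeletal muscle (5 of 8) summed to 83.8, 8.86 and 80.4 FPKM in control livers C1 to C3 and 3.155, 1.27 and 12.5 FPKM in high-intake livers T1 to T3. In adipose they summed to 2.56 to 12.5 FPKM. *ACTA1*, at 67.7 FPKM in C1-L and 66.9 FPKM in C3-L, made up most of those 2 sums. Whether these livers held muscle was not tested. The single erythrocyte marker found of 8 was at 0.919 to 9.76 FPKM. The albumin gene *ALB* was listed at 0 in 5 of the 6 livers, so an exact 0 can be a failed estimate in these values. In 14 of the 60 members the gene model overlaps another annotated gene. Whether counting used strand is not given in the sources used here, so the values of such members, *GLB1*, *LAMP1*, *LAMP2*, *CTSA*, *IDUA* and *ATP6V1A* among them, may hold reads of the neighbour.

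Lysosome genes were broadly expressed in all 3 tissues. Over the 6 libraries of a tissue, the mean exceeded 1 FPKM for 53 members in liver and for 57 in each adipose tissue, and it exceeded 100 FPKM for 7, 7 and 6 members in liver, AA and SA. The order at the top differed between tissues and feeding groups. In high-intake livers the cathepsin gene *CTSB* had the highest mean, 326 ± 141 FPKM (SD, n = 3), ahead of *ATP6V0E1* (255 ± 50.2), *LGMN* (254 ± 169.7) and *LAMP1* (214 ± 36.3), all within 1 SD of *CTSB*. In control livers *LAMP1* came first at 271 ± 24.0 FPKM, followed by *CTSL* (249 ± 36.2), *ATP6V0E1* (182 ± 19.3) and *CTSB* (171 ± 15.1). In AA the small V0 subunit gene *ATP6V0E1* was highest, at 470.4 ± 87.7 FPKM in high-intake and 314 ± 139 FPKM in control geese, and in SA too, at 519.9 ± 142 FPKM in high-intake and 417 ± 239 FPKM in control geese. *CTSB* was next in each adipose group, at 371 ± 63.5 FPKM in high-intake AA, 160.0 ± 27.6 FPKM in control AA, 232 ± 17.4 FPKM in high-intake SA and 97.6 ± 53.8 FPKM in control SA, where *LAMP1* and *ASAH1* lay within its spread. At the other end were *ATP6V0A4*, *ATP6V1B1* and *CTSE*, with a highest value of 0.358 FPKM in any library. In mammals, *ATP6V0A4* and *ATP6V1B1* serve proton-secreting epithelia and *CTSE* encodes an aspartic protease of gastric and immune cells. These 3 genes stayed under the mean of 0.1 FPKM that a test required in liver, which left 57 members tested there. In AA 58 members were tested, without *ATP6V0A4* and *ATP6V1B1*, and in SA 58, without *ATP6V1B1* and *CTSE*.

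The first question was which lysosome genes differed between high-intake and control geese in each tissue. In liver, *CTSZ* and *CTSC* were higher in high-intake geese at the adjusted threshold, in SA *GALC* was, and in AA no member was. Many further members were higher in every high-intake library than in every control library without passing the adjusted test. Such non-overlapping groups were found for 25 of 57 members in liver (43.9%, against 16.1% of all genes tested), for 35 of 58 in AA (60.3%, against 20.1%) and for 23 of 58 in SA (39.7%, against 13.1%). In the opposite direction there was 1 member in SA, *ATP6V0A4*, and none in liver or AA. *ATP6V0A4* passed the filter on low values in SA only through its control values. Its mean was 0.176 FPKM in control and 0.0700 FPKM in high-intake SA, so its direction is not read as a result. Among all genes tested, 1808 of 11752 were lower without overlap in liver, 898 of 12526 in AA and 1032 of 13264 in SA. The share of members called higher, 2 of 57, 0 of 58 and 1 of 58, stood beside 1.27%, 0.0878% and 1.18% of all genes in liver, AA and SA. At an unadjusted p under 0.05, 23 members were higher in liver (40.4%, against 12.8% of all genes), 35 in AA (60.3%, against 16.8%) and 11 in SA (19.0%, against 7.21%), and none was lower. Of all genes, 2833 of 11752 in liver, 2545 of 12526 in AA and 1703 of 13264 in SA had such a p in either direction. The higher ones among them numbered 1510, 2105 and 956.

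The direction was shared by most of the list. A positive change was estimated for 50 of 57 members in liver (87.7%, against 52.9% of all genes), 54 of 58 in AA (93.1%, against 63.2%) and 57 of 58 in SA (98.3%, against 69.0%). The median change over the tested members was 0.46 in liver, 0.71 in AA and 0.73 in SA on the log2 scale, beside medians over all genes of 0.03, 0.12 and 0.21. Centring each library on its own median moved the median of all genes by 0.04 in liver, 0.13 in AA and 0.30 in SA. Relative to that shift the median of the members was 0.43, 0.57 and 0.43, and 48 of 57, 53 of 58 and 53 of 58 members were positive. Without C2-SA, the median of the members in SA was 0.34, beside -0.008 for all genes, with 49 of 58 positive and 23 higher without overlap. Without C1-SA it was 1.04, beside 0.38 for all genes, with 43 higher without overlap. The share of all genes without overlap is not given here for these settings, so these counts of non-overlapping members are not read as a result. Centring turned the sign of *NAGLU* and *FUCA1* in liver, *MCOLN1* in AA, and *ATP6V0A2*, *IDUA*, *CTSK* and *MCOLN1* in SA, all with estimates near the shift. With single libraries left out the calls changed. In AA, 7 members were called without C1-AA (*CTSZ*, *CTSL*, *LGMN*, *ATP6V0D1*, *ATP6V1D*, *ATP6V1E1* and *ATP6V1H*), while the calls among all genes rose from 11 to 245 of 12520. *GALC* was called without T2-AA, with 21 of 12496 genes. In SA, *CTSS* and *GM2A* were called beside *GALC* without C1-SA, with 715 of 13356 genes. *GNPTAB*, listed at 0 in 7 libraries, was called beside *GALC* without T2-SA, with 115 of 13438 genes. Without T3-L *GM2A* was called in liver beside *CTSZ*, with 238 of 11767 genes.

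**Figure D1:**
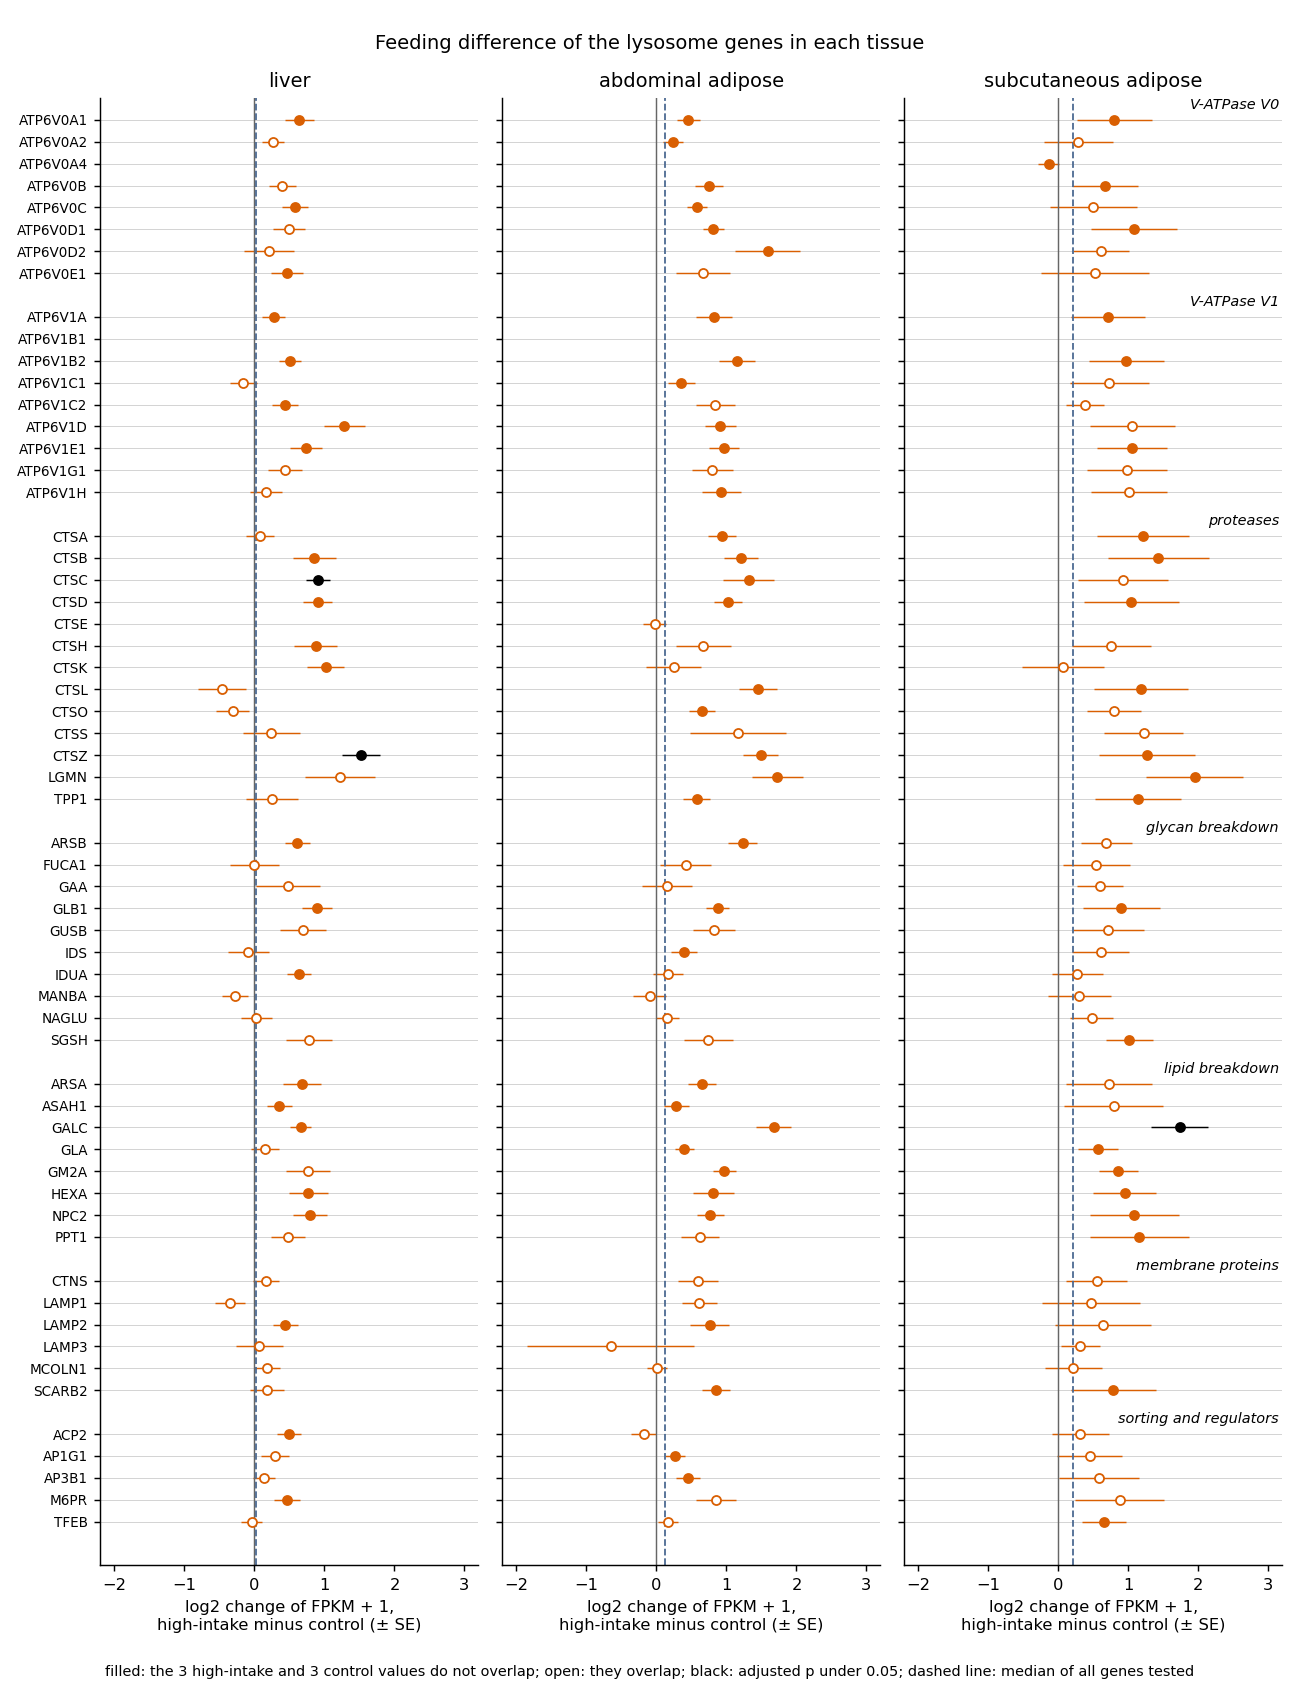
Difference between high-intake and control geese for the lysosome genes, grouped by role, in liver, AA and SA. The horizontal axis is the log2 change of FPKM + 1 with its standard error; filled points mark groups of 3 that do not overlap, black points the called genes *CTSZ*, *CTSC* and *GALC*, and the dashed line the median of all genes tested. Most points lie to the right of the dashed line in all 3 tissues. *GNPTAB*, which is listed at 0 in 7 libraries, is left out.

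Of the 57 members tested in all 3 tissues, 11 were higher in high-intake geese without overlap in each tissue (19.3%, against 3.68% of 11378 genes). They were the pump genes *ATP6V0A1*, *ATP6V1A*, *ATP6V1B2* and *ATP6V1E1*, the cathepsin genes *CTSB*, *CTSD* and *CTSZ*, and *GALC*, *GLB1*, *HEXA* and *NPC2*. A further 16 were apart in 2 tissues (28.1%, against 10.4% of genes), 18 in 1 and 12 in none. The 3 tissues came from the same 6 geese and are not independent of each other.

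As a share of the summed FPKM of a library, the 60 members together took 0.679%, 0.603% and 0.679% in high-intake livers T1 to T3, against 0.522%, 0.469% and 0.477% in control livers C1 to C3. In AA the share was 0.855% to 0.977% in high-intake geese and 0.652% to 0.748% in control geese, and in SA it was 0.739% to 0.839% in high-intake geese and 0.642% to 0.676% in control geese. The groups did not overlap in any of the 3 tissues, and C2-SA, which was low in absolute values, lay at 0.669%, within the range of the control SA libraries. The groups were apart for the proteases too, whose share was 0.253% to 0.344% in high-intake and 0.199% to 0.206% in control livers, 0.326% to 0.428% in high-intake and 0.204% to 0.244% in control AA, and 0.278% to 0.317% in high-intake and 0.183% to 0.197% in control SA. The V-ATPase genes separated the groups in liver, at 0.120% to 0.169% in high-intake and 0.0972% to 0.117% in control livers. In both adipose tissues they overlapped, at 0.229% to 0.272% in high-intake and 0.169% to 0.234% in control AA, and at 0.200% to 0.268% in high-intake and 0.220% to 0.247% in control SA. The V0 genes alone overlapped there too. The V1 genes alone were apart, at 0.0533% to 0.0702% in high-intake and 0.0428% to 0.0495% in control AA. In SA the V1 share was 0.0509% to 0.0565% in high-intake and 0.0376% to 0.0460% in control geese. A bulk library cannot tell apart more cells of a type from more RNA per cell. Of 20 macrophage and dendritic cell markers 7 were found, none of them listed at 0 in a whole tissue. Their summed FPKM was 235 to 433 in high-intake and 330.2 to 484 in control livers, 699.9 to 1450.0 in high-intake and 812 to 1054 in control AA, and 658 to 1079 in high-intake and 208 to 991 in control SA. The sums overlapped between the feeding groups in each tissue, and *CD74* and *LAPTM5* made up most of each sum. Higher without overlap were 1 of 7 in liver (*VSIG4*), 1 in AA (*MARCO*) and 0 in SA, beside 16.1%, 20.1% and 13.1% of all genes. *VSIG4* was at 3.205, 5.09 and 2.264 FPKM in high-intake livers and 0.9523, 0.5485 and 1.982 FPKM in control livers. *MARCO* was at 1.651, 15.58 and 2.339 FPKM in high-intake AA and 1.497, 1.456 and 0.1168 FPKM in control AA. Of the 7 markers 3, 6 and 7 had positive estimates in liver, AA and SA, with medians of -0.02, 1.11 and 0.71 on the log2 scale, and none was called. Macrophages are rich in lysosomes, and their part in the results was not tested.

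**Figure D2:**
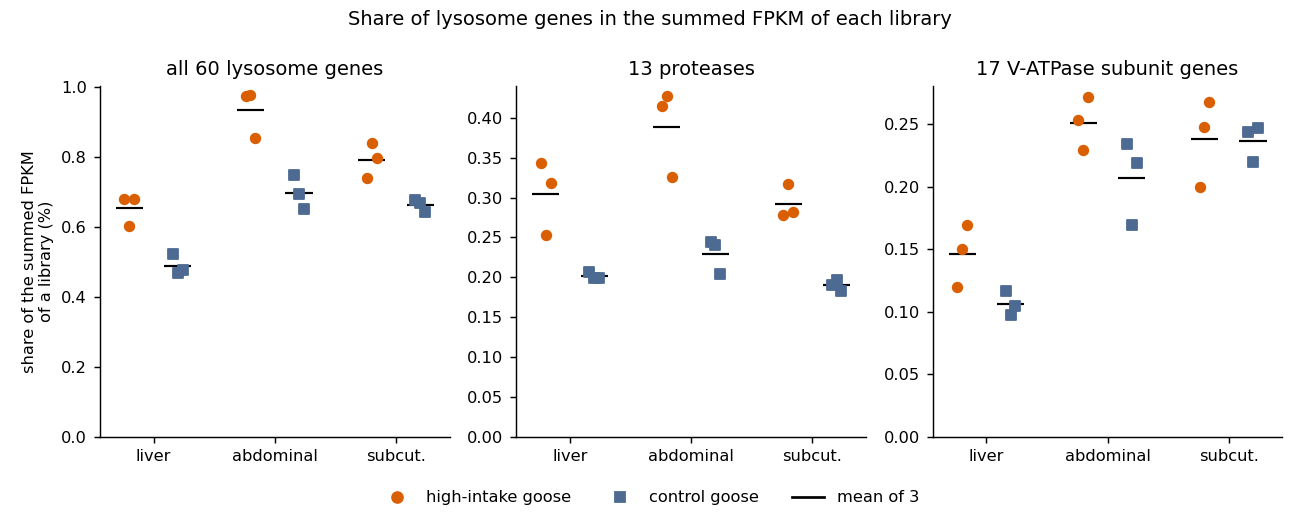
Share of the lysosome genes in the summed FPKM of each library, in percent, for all 60 members, the 13 proteases and the 17 V-ATPase subunit genes. Each point is 1 goose, high-intake left of control within each tissue, and lines mark the mean of 3. The groups are apart for all members and for the proteases in every tissue, and overlap for the V-ATPase in AA and SA.

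Among the proteases, cathepsin Z (*CTSZ*), a carboxypeptidase, had the largest called difference in liver. It reached 108, 116 and 62.7 FPKM in high-intake livers T1 to T3, against 37.1, 30.3 and 27.9 FPKM in control livers C1 to C3. The lowest high-intake liver, T3, was well above the highest control liver, and the log2 change was 1.52 ± 0.27 (SE, adjusted p = 0.044). In AA the gene was at 111, 121 and 92.5 FPKM in high-intake geese and 53.3, 30.1 and 33.2 FPKM in control geese, and in SA at 129, 118 and 119.9 FPKM in high-intake geese and 76.2, 23.3 and 71.3 FPKM in control geese. The groups were apart in both adipose tissues too, with log2 changes of 1.49 ± 0.25 (adjusted p = 0.089) and 1.26 ± 0.68 (adjusted p = 0.43), where the second includes the low library C2-SA. Cathepsin C (*CTSC*), which activates serine proteases of immune cells, was at 127, 130.5 and 148 FPKM in high-intake livers, against 75.9, 70.1 and 67.9 FPKM in control livers. Both groups were tight, and the log2 change was 0.91 ± 0.17 (adjusted p = 0.046). Both calls were close to the threshold. That of *CTSZ* was lost without any 1 of C1, C2, C3, T1 and T2 (adjusted p = 0.065 to 0.16), and that of *CTSC* without any 1 of the 6 libraries (adjusted p = 0.058 to 0.18). In AA, *CTSC* was at 125, 98.5 and 54.4 FPKM in high-intake geese and 50.9, 28.6 and 28.2 FPKM in control geese, again without overlap, while in SA the groups overlapped.

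Cathepsins B and D, a cysteine and an aspartic protease of lysosomes, were higher without overlap in all 3 tissues, although neither was called in any. *CTSB* was at 488, 257 and 234 FPKM in high-intake livers, against 179, 180.0 and 154 FPKM in control livers, with T1 far above the others. It was at 390.0, 422 and 299.9 FPKM in high-intake AA, against 183, 168 and 129 FPKM in control AA, a log2 change of 1.21 ± 0.24 (adjusted p = 0.11), and at 216, 250.5 and 228 FPKM in high-intake SA, against 145, 39.0 and 109 FPKM in control SA. For *CTSD* the values were 85.1, 114 and 129 FPKM in high-intake livers and 56.4, 59.9 and 55.4 FPKM in control livers, with a log2 change of 0.90 ± 0.20 (adjusted p = 0.068). The estimate of *CTSD* was 1.02 ± 0.21 in AA (adjusted p = 0.11) and 1.04 ± 0.68 in SA (adjusted p = 0.53), where control values ran over 52.0, 30.1 and 93.1 FPKM. Legumain (*LGMN*), an asparaginyl endopeptidase that trims other lysosomal proteases, had the largest estimates of all members in both adipose tissues. It was at 219, 140.5 and 186 FPKM in high-intake AA and 93.0, 40.4 and 40.1 FPKM in control AA (log2 change 1.73 ± 0.37, adjusted p = 0.11), and at 202, 89.6 and 241 FPKM in high-intake SA and 58.2, 25.0 and 49.7 FPKM in control SA (log2 change 1.95 ± 0.69, adjusted p = 0.12). In liver its values were 206, 114 and 443 FPKM in high-intake geese and 73.3, 140.5 and 77.9 FPKM in control geese, so that T2 fell inside the control range while T3 was the highest of all 18 libraries.

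The remaining proteases differed in the tissue in which the groups were apart. The aminopeptidase gene *CTSH* and the collagen-degrading cathepsin gene *CTSK* were higher without overlap in liver but overlapped in both adipose tissues. *CTSH* was at 47.4, 36.4 and 26.2 FPKM in high-intake livers, against 24.7, 12.8 and 21.6 FPKM in control livers (log2 change 0.87 ± 0.31, adjusted p = 0.14), and *CTSK* at 6.59, 10.5 and 14.3 FPKM, against 4.24, 4.07 and 5.11 FPKM (log2 change 1.01 ± 0.27, adjusted p = 0.088). The reverse held for the carboxypeptidase gene *CTSA* and the tripeptidyl peptidase gene *TPP1*. *CTSA* was at 69.0, 107 and 103 FPKM in high-intake SA and 53.7, 23.7 and 46.4 FPKM in control SA (log2 change 1.21 ± 0.66, adjusted p = 0.44), and its values in liver, 42.0, 29.9 and 29.7 FPKM in high-intake and 27.9, 36.0 and 31.1 FPKM in control geese, were mixed. *TPP1* was at 54.2, 47.5 and 57.8 FPKM in high-intake SA, against 43.0, 11.3 and 26.8 FPKM in control SA. *CTSO*, a cathepsin gene of low level, reached 6.46 FPKM at most and was higher without overlap in AA. *CTSS*, the cathepsin of antigen-presenting cells, overlapped in all 3 tissues and varied between geese. It was at 63.9, 94.9 and 15.5 FPKM in high-intake AA and 36.1, 15.9 and 13.5 FPKM in control AA, so that T3 lay within the control range.

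**Figure D3:**
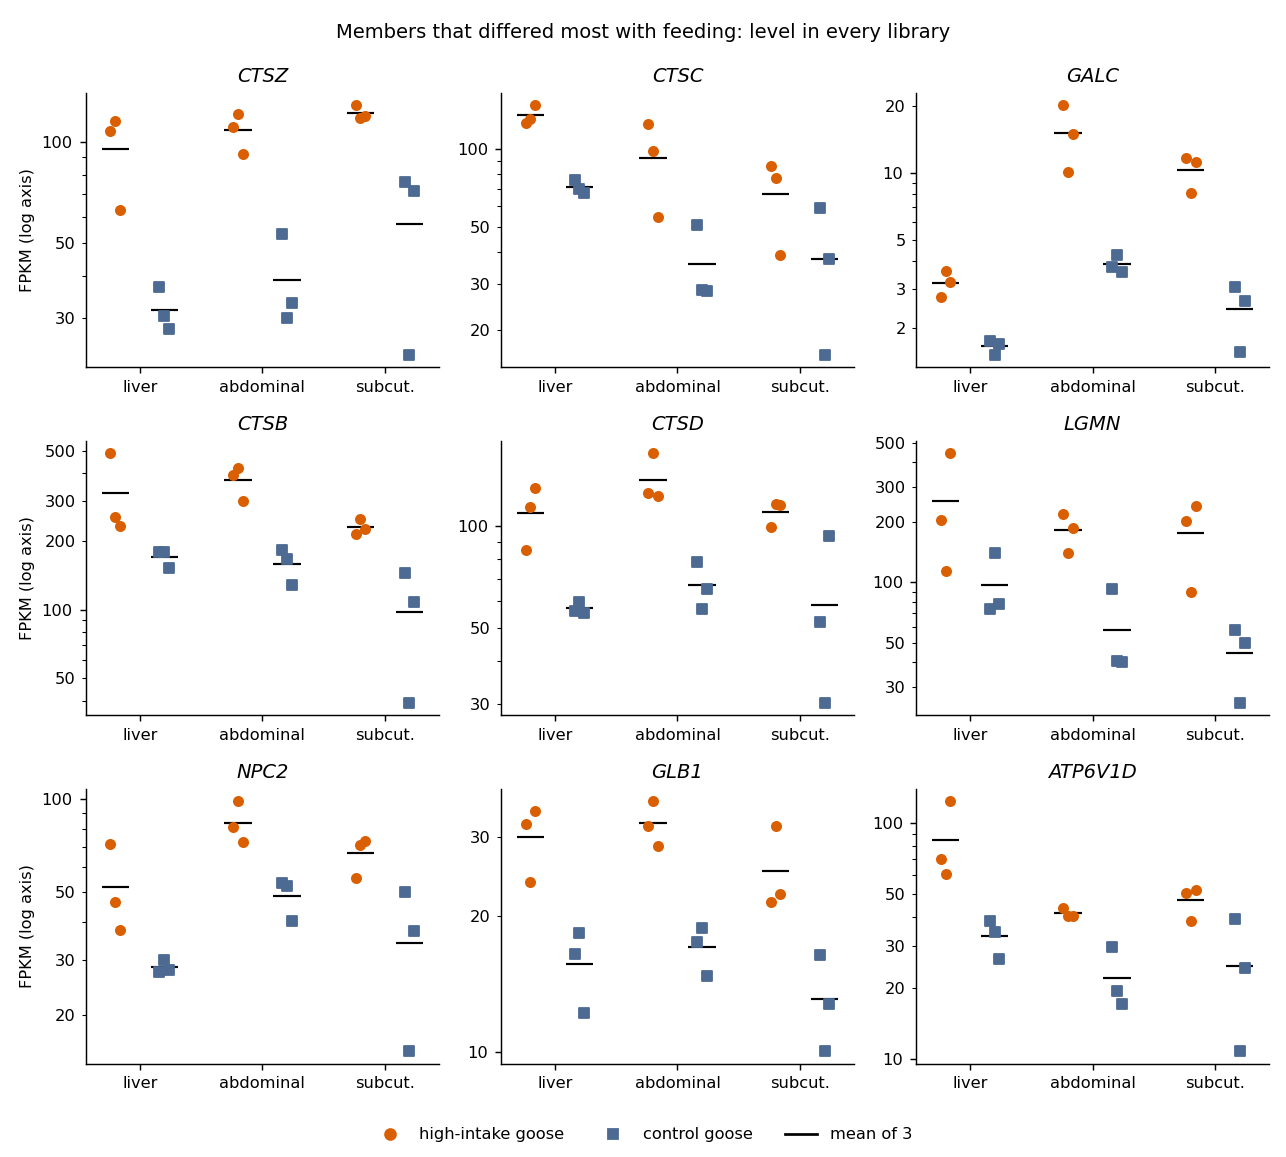
FPKM on a log axis in every library for 9 members: *CTSZ*, *CTSC*, *GALC*, *CTSB*, *CTSD*, *LGMN*, *NPC2*, *GLB1* and *ATP6V1D*. Each point is 1 goose, with high-intake geese left of control geese within each tissue, and lines mark the mean of 3. The groups are apart in every panel and tissue except *LGMN* in liver and *CTSC* and *ATP6V1D* in SA.

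Lipid-digesting genes were the most uniform group. All 8 had positive estimates in each tissue, and 5, 7 and 6 of them were higher without overlap in liver, AA and SA. Among all genes, 16.1%, 20.1% and 13.1% were higher without overlap in these tissues. Galactosylceramidase (*GALC*), which removes galactose from sphingolipids, was the called member in SA. It was at 11.6, 8.11 and 11.2 FPKM in high-intake SA, against 3.06, 1.57 and 2.66 FPKM in control SA, so the lowest high-intake library was far above the highest control library. The log2 change was 1.73 ± 0.41 (adjusted p = 0.0036). In this fit the standard error came from the mean-variance trend over all genes and not from the spread of *GALC* itself. Leaving out C2, C3, T1 or T3 ended the call (adjusted p = 0.058 to 0.12, the last without C2-SA), as did a fit without the mean-variance trend of limma (adjusted p = 0.41) and 1 without the filter on low values (adjusted p = 0.45). In AA, *GALC* was at 20.1, 10.1 and 14.9 FPKM in high-intake geese and 3.78, 4.25 and 3.58 FPKM in control geese, a change of 1.67 ± 0.24 (adjusted p = 0.089). Liver levels were lower, at 2.77, 3.62 and 3.23 FPKM in high-intake geese and 1.75, 1.52 and 1.70 FPKM in control geese, and the groups were again apart (log2 change 0.66 ± 0.15, adjusted p = 0.069).

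The sterol carrier gene *NPC2*, whose protein hands cholesterol from lysosomal lipids to the membrane, was at 71.6, 46.5 and 37.5 FPKM in high-intake livers and 27.6, 30.1 and 27.9 FPKM in control livers. It was at 80.9, 98.0 and 72.3 FPKM in high-intake AA and 53.3, 52.3 and 40.2 FPKM in control AA, and at 55.6, 71.1 and 73.1 FPKM in high-intake SA and 50.1, 15.3 and 37.2 FPKM in control SA. High-intake values exceeded control values in each tissue, with log2 changes of 0.79 ± 0.25, 0.77 ± 0.20 and 1.08 ± 0.64. *HEXA*, the alpha subunit gene of hexosaminidase, was likewise apart in all 3 tissues, at 8.70, 5.81 and 3.60 FPKM in high-intake and 3.02, 3.33 and 2.53 FPKM in control livers. Its activator for GM2 ganglioside, *GM2A*, was at 3.69, 3.23 and 3.85 FPKM in high-intake AA and 1.47, 0.966 and 1.64 FPKM in control AA. It was low in liver, at 2.15, 1.36 and 0.283 FPKM in high-intake and 0.134, 0.156 and 0.475 FPKM in control geese, where the groups overlapped. The sulfatide-cleaving *ARSA* and the ceramide-cleaving *ASAH1* were higher without overlap in liver and AA. *ASAH1* was abundant with a small change in liver, at 95.8, 95.7 and 113 FPKM in high-intake and 86.5, 70.3 and 80.9 FPKM in control geese. *PPT1*, which removes palmitate from proteins, was at 194, 149 and 183 FPKM in high-intake SA, against 139.7, 30.9 and 108 FPKM in control SA (log2 change 1.16 ± 0.71, adjusted p = 0.5). *GLA*, alpha-galactosidase, was at most 3.41 FPKM and was apart in AA and SA.

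Enzymes of glycan breakdown were less uniform, with 3, 3 and 2 of 10 higher without overlap in liver, AA and SA. The shares of all genes were 16.1%, 20.1% and 13.1%, and with 10 genes such counts are not read as a result. Beta-galactosidase (*GLB1*) was apart in every tissue. It was at 32.0, 23.8 and 34.2 FPKM in high-intake livers and 16.5, 18.4 and 12.2 FPKM in control livers (log2 change 0.89 ± 0.22, adjusted p = 0.077), and at 31.7, 35.9 and 28.7 FPKM in high-intake AA and 17.6, 18.9 and 14.8 FPKM in control AA (log2 change 0.87 ± 0.16, adjusted p = 0.098). *ARSB*, a sulfatase that acts on dermatan sulfate, was at 8.95, 7.67 and 5.22 FPKM in high-intake AA, against 2.79, 2.59 and 2.05 FPKM in control AA, a change of 1.23 ± 0.21 (adjusted p = 0.089), and was also apart in liver. The enzymes that take heparan sulfate apart differed from each other. *IDUA* was at 2.60, 3.45 and 2.11 FPKM in high-intake and 1.36, 1.26 and 1.48 FPKM in control livers without overlap, *SGSH* was apart in SA, at 3.94, 7.09 and 2.48 FPKM in high-intake and 1.64, 1.28 and 1.80 FPKM in control geese, *IDS* was apart in AA, and *NAGLU* overlapped in all 3 tissues. *GAA*, the enzyme that digests glycogen inside lysosomes, overlapped in each tissue. Its liver values were 6.28, 1.82 and 0.873 FPKM in high-intake geese and 1.37, 1.67 and 1.25 FPKM in control geese, with T1 alone above the rest. Another locus, annotated as lysosomal alpha-glucosidase-like, is described at the end. *GUSB*, *FUCA1* and *MANBA*, enzymes that remove glucuronic acid, fucose and mannose, overlapped in every tissue, and *MANBA* was below zero in liver (-0.27 ± 0.19) and AA (-0.09 ± 0.24).

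In the V-ATPase, 8 subunit genes were higher without overlap in liver, 12 in AA and 6 in SA, of 15, 15 and 16 tested, and none was called. The shares of all genes higher without overlap were 16.1%, 20.1% and 13.1%. The largest estimate in liver was that of *ATP6V1D*, a subunit of the central rotor. It was at 70.5, 60.7 and 123 FPKM in high-intake livers and 38.2, 34.4 and 26.5 FPKM in control livers, with T3 highest (log2 change 1.28 ± 0.29, adjusted p = 0.07). In AA it was at 43.7, 40.2 and 40.2 FPKM in high-intake geese and 29.9, 19.4 and 17.1 FPKM in control geese, and in SA the groups overlapped. The catalytic subunit gene *ATP6V1A* was at 13.4, 14.5 and 15.2 FPKM in high-intake livers and 13.2, 10.0 and 12.1 FPKM in control livers, where the gap between the groups was small (0.27 ± 0.16). In AA it was at 29.9, 27.1 and 17.1 FPKM in high-intake and 16.7, 10.9 and 12.6 FPKM in control geese. The nucleotide-binding partner *ATP6V1B2* was at 42.2, 31.1 and 25.1 FPKM in high-intake AA and 18.6, 11.6 and 12.2 FPKM in control AA, a change of 1.16 ± 0.26 (adjusted p = 0.11), and *ATP6V1E1*, of the peripheral stalk, at 34.0, 30.9 and 37.0 FPKM in high-intake livers and 22.4, 25.0 and 14.3 FPKM in control livers. Both were apart in all 3 tissues. *ATP6V1C1* was the V1 gene with a negative estimate in liver, at 23.7, 30.8 and 31.3 FPKM in high-intake and 37.4, 29.8 and 28.9 FPKM in control geese, and its paralogue *ATP6V1C2* was apart there in the other direction, at 3.82, 5.95 and 5.54 FPKM in high-intake and 3.55, 3.31 and 3.54 FPKM in control geese. *ATP6V1H* overlapped in liver and SA and was apart in AA, while *ATP6V1G1* overlapped in all 3.

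In the V0 sector, the proteolipid gene *ATP6V0C*, which forms the proton-carrying ring, was at 34.3, 39.0 and 42.0 FPKM in high-intake livers and 24.7, 30.5 and 21.7 FPKM in control livers, and at 65.1, 67.6 and 63.0 FPKM in high-intake AA and 46.2, 41.1 and 42.7 FPKM in control AA. The log2 change was 0.58 in liver and 0.58 in AA. In SA the gene overlapped, with 86.5 FPKM in T2-SA standing apart. *ATP6V0D1*, which joins the ring to the rotor, was at 52.2, 50.9 and 58.8 FPKM in high-intake AA and 34.1, 27.8 and 29.0 FPKM in control AA (log2 change 0.81 ± 0.15, adjusted p = 0.1), and at 45.7, 46.9 and 54.1 FPKM in high-intake SA and 30.6, 12.2 and 30.4 FPKM in control SA (log2 change 1.08 ± 0.61). Its paralogue *ATP6V0D2*, known in mammals from osteoclasts and macrophages, was at 16.1, 6.90 and 5.20 FPKM in high-intake AA, against 4.11, 1.10 and 1.87 FPKM in control AA (log2 change 1.59 ± 0.46, adjusted p = 0.15), and overlapped in liver and SA. *ATP6V0A1*, a stator subunit gene, was apart in all 3 tissues, at 9.77, 5.89 and 9.20 FPKM in high-intake and 5.19, 4.42 and 4.98 FPKM in control livers. *ATP6V0B* was apart in AA and SA, *ATP6V0A2* in AA, and *ATP6V0E1* in liver by a narrow margin, at 199, 269 and 296 FPKM in high-intake and 187, 161 and 199 FPKM in control geese. *ATP6V0A4*, the member that was lower without overlap in SA, was at 0.0329, 0.0968 and 0.0802 FPKM in high-intake and 0.129, 0.223 and 0.177 FPKM in control geese, levels at which the log2 scale with 1 added shows little (-0.14 ± 0.15).

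Membrane proteins had the smallest median change of the roles in liver, 0.17, against 0.61 in AA and 0.51 in SA. *LAMP2*, which also serves as a receptor of chaperone-mediated autophagy in mammals, was at 129, 142 and 119 FPKM in high-intake livers and 91.3, 105 and 90.3 FPKM in control livers without overlap (log2 change 0.44 ± 0.17, adjusted p = 0.18), and was apart in AA too. *LAMP1* was at 253, 181 and 208 FPKM in high-intake livers and 298, 266 and 250.4 FPKM in control livers, a change of -0.35 ± 0.21 (adjusted p = 0.34) in which T1 reached into the control range. *SCARB2*, a receptor that brings a hydrolase to the lysosome, was at 47.0, 36.3 and 39.0 FPKM in high-intake AA and 27.6, 18.2 and 21.2 FPKM in control AA and was apart in SA as well. The cystine exporter gene *CTNS* and the calcium channel gene *MCOLN1* overlapped in all 3 tissues. *MCOLN1* was at 7.09, 7.30 and 7.85 FPKM in high-intake AA and 7.96, 7.76 and 6.52 FPKM in control AA, an estimate of 0.00 ± 0.14. *LAMP3*, a marker of mature dendritic cells in mammals, was dominated by single libraries in AA, at 1.34, 29.1 and 0.635 FPKM in high-intake geese and 19.5, 1.96 and 6.40 FPKM in control geese.

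Of the genes of sorting and regulation, the mannose 6-phosphate receptor gene *M6PR* was at 52.9, 60.5 and 43.1 FPKM in high-intake livers and 39.9, 38.6 and 33.7 FPKM in control livers, without overlap. The acid phosphatase gene *ACP2* was apart in liver (0.49 ± 0.17) and negative in AA (-0.18 ± 0.18). The adaptor genes *AP1G1* and *AP3B1*, whose proteins build coats of transport vesicles, were apart in AA with changes of 0.27 and 0.45. *TFEB* was scarce in liver, at 0.644, 0.243 and 0.141 FPKM in high-intake geese and 0.458, 0.239 and 0.394 FPKM in control geese, and overlapped there. In SA it was at 2.67, 2.60 and 3.61 FPKM in high-intake and 2.02, 0.688 and 2.08 FPKM in control geese, the one tissue in which its groups were apart. *GNPTAB*, which makes the mannose 6-phosphate tag, was listed at 0 in 7 libraries and at 5.61 to 30.9 FPKM in the others, with values of 22.2, 27.1 and 0 FPKM in high-intake livers and 30.9, 0 and 0 FPKM in control livers, so no change is read for it.

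Whether the feeding response itself differed between liver and adipose tissue was tested with goose as a block. No member passed the adjusted threshold, against 0.0723% of all genes for liver minus AA and 1.72% for liver minus SA. At an unadjusted p under 0.05 there were 8 of 57 members for liver minus AA, beside 14.0% of all genes, and 4 of 58 for liver minus SA, beside 11.0%. The members' shares, 14.0% and 6.90%, were at or below these, so the following values describe single members only. The largest estimate was that of *CTSL*, an endopeptidase. It was at 278, 113 and 182 FPKM in high-intake livers and 259, 209 and 279 FPKM in control livers, but at 150.5, 149 and 134 FPKM in high-intake AA and 75.4, 36.8 and 51.0 FPKM in control AA, and at 114, 96.5 and 99.8 FPKM in high-intake SA and 75.0, 23.0 and 51.9 FPKM in control SA. The groups overlapped in liver (-0.46 ± 0.34) and were apart in AA (1.45 ± 0.27, adjusted p = 0.098) and SA (1.18 ± 0.67, adjusted p = 0.46). The response of liver minus that of AA was -1.92 ± 0.40 (adjusted p = 0.13 in limma), and minus that of SA -1.65 ± 0.75 (adjusted p = 0.4). For *LAMP1* the difference from AA was -0.96 ± 0.28 (adjusted p = 0.21), for *GALC* -1.01 ± 0.32 (adjusted p = 0.24), for *CTSO* -0.96 ± 0.25 (adjusted p = 0.18) and for *CTSA* -0.85 ± 0.28 (adjusted p = 0.25). *ACP2* was the member with a positive one at that level, 0.67 ± 0.26 (adjusted p = 0.31).

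**Figure D4:**
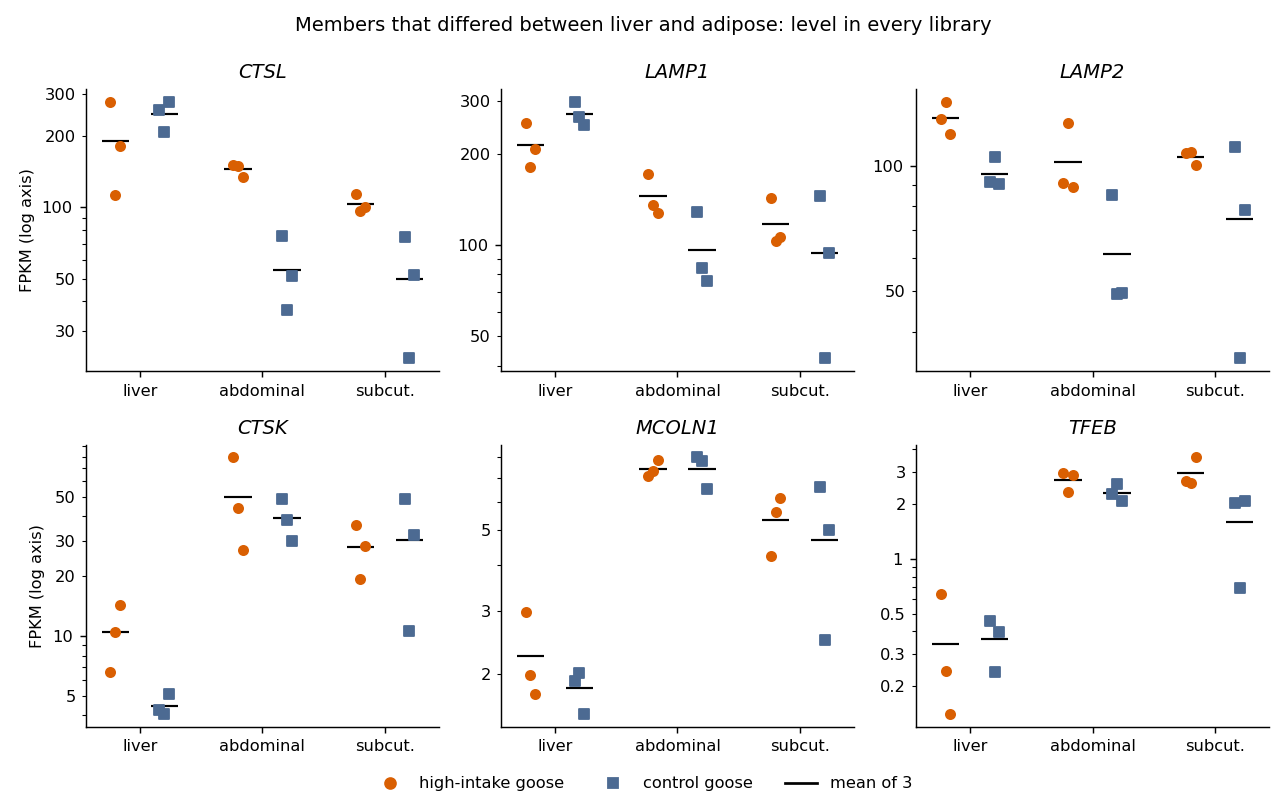
FPKM on a log axis in every library for *CTSL*, *LAMP1*, *LAMP2*, *CTSK*, *MCOLN1* and *TFEB*. Each point is 1 goose, high-intake left of control within each tissue, and lines mark the mean of 3. Liver values of *TFEB* lie below all adipose values, those of *CTSK* and *MCOLN1* below all but C2-SA, and *CTSL* differs less between tissues in high-intake than in control geese.

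The next question was how the lysosome of liver differed from that of fat within a feeding group. Of the 4 comparisons of liver with an adipose tissue, *CTSK*, *MCOLN1* and *TFEB* were called lower in liver in all 4. The members called lower in 3 included *ATP6V0A1*, *ATP6V0D1*, *ATP6V0D2*, *GM2A* and *PPT1*. *CTNS* was called higher in liver in all 4, *GUSB*, *ATP6V1H*, *ATP6V1E1* and *ATP6V1C2* in 3, and *CTSL* and *LAMP1* in 2. In high-intake geese, liver against AA gave 4 members called higher and 21 called lower of 57, beside 14.3% and 41.7% of all genes. In control geese the same comparison gave 13 higher and 23 lower of 57, beside 19.0% and 43.5%. Against SA, liver had 7 members higher and 15 lower of 57 in high-intake geese, beside 15.9% and 41.3%, and 4 higher and 5 lower of 58 in control geese, beside 12% and 23.5%. The split depends on the scale between tissues. With each library centred on its median, the numbers were 14 higher and 10 lower for AA in high-intake geese, 21 and 14 for AA in control geese, 18 and 8 for SA in high-intake geese, and 20 and 8 for SA in control geese, because centring moved the median of all genes by 0.28 to 0.61 on the log2 scale. Among all genes the centred numbers for AA were 4227 higher and 2426 lower of 12363 in high-intake geese and 4696 and 2964 of 12422 in control geese. For SA they were 4130 and 2624 of 12253 in high-intake geese and 3111 and 2501 of 13257 in control geese. In control geese, liver against SA gave 5 members higher and 20 lower without C2, 2 and 3 without C1, and 0 and 2 without C3, and liver against AA gave 5 and 17 without C3. Among all genes, liver against SA gave 1795 and 5245 of 12590 without C2 and 1263 and 2270 of 13528 without C1. Without C3, liver against SA gave 875 and 1364 of 13371 genes, and liver against AA 1719 and 4092 of 12373. In high-intake geese, liver against AA gave 15 to 16 members without any 1 goose. Among all genes the counts were 4876 of 12328 without T1, 5711 of 12269 without T2 and 4993 of 12381 without T3. Liver against SA gave 12 members without T3, where the count of all genes is not given here and no result is read. With goose as a block, some calls near the threshold changed. In liver against AA of high-intake geese, *ATP6V0B*, *HEXA*, *NPC2* and *SGSH* were then called lower (adjusted p = 0.0083 to 0.049) and *ACP2* was lost (0.071), and in control geese *ATP6V1D* (0.029) and *CTSS* (0.013) were called higher and *LAMP2* was lost (0.062). In liver against SA of high-intake geese, *ATP6V1D* and *CTSL* were called higher and *GLA*, *GM2A* and *HEXA* lower (adjusted p = 0.016 to 0.046), and in control geese *ATP6V0A1* (0.046) and *IDUA* (0.047) were called lower.

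Cathepsin K (*CTSK*), the collagenase of bone-resorbing cells, had the largest difference of liver from AA in control geese. Its level in liver was 6.59, 10.5 and 14.3 FPKM and in AA 79.2, 44.1 and 27.2 FPKM in high-intake geese T1 to T3, and 4.24, 4.07 and 5.11 FPKM in liver and 48.9, 38.5 and 30.0 FPKM in AA of control geese C1 to C3. The log2 difference of liver from AA was -2.08 ± 0.43 in high-intake geese (adjusted p = 0.0058) and -2.85 ± 0.20 in control geese (adjusted p = 2.3e-05), and after centring -1.48 and -2.36. *TFEB* was lower in liver than in AA by -1.49 ± 0.18 in high-intake geese (adjusted p = 0.00059) and -1.28 ± 0.12 in control geese (adjusted p = 9.2e-05). Its target in mammals *MCOLN1* showed -1.39 ± 0.19 and -1.57 ± 0.15 in the same comparisons, called in both. *PPT1* was lower by -1.77 ± 0.27 and -1.63 ± 0.25, again called in both, and by -1.99 ± 0.27 against SA in high-intake geese. All of these kept their sign after centring, although *CTSK* (-0.81) and *MCOLN1* (-0.43) were then no longer called against SA in high-intake geese. The 8 genes of lipid breakdown had negative differences in all 4 liver comparisons. In high-intake geese 6 of 8 were called lower in liver against AA and 3 of 8 against SA (beside 41.7% and 41.3% of all genes). In control geese 8 of 8 were called lower against AA and 1 of 8 against SA (beside 43.5% and 23.5%). After centring 4 of the 8 called against AA in control geese were still called, *GALC*, *ARSA*, *HEXA* and *PPT1*, and against SA the estimates of *ASAH1* and *NPC2* turned positive in both feeding groups and that of *GLA* in control geese. In high-intake geese *GALC* had the largest difference of the group from AA, -1.89 ± 0.26 (adjusted p = 0.001).

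On the other side, *CTSL* was at 259, 209 and 279 FPKM in control livers and 75.4, 36.8 and 51.0 FPKM in control AA, a difference of 2.22 ± 0.29 (adjusted p = 0.00037), and 2.44 ± 0.67 against SA (adjusted p = 0.0069). In high-intake geese it was not called, at 0.31 ± 0.33 against AA. *LAMP1* was higher in liver than in AA of control geese by 1.52 ± 0.25 (adjusted p = 0.0012) and than in SA of high-intake geese by 0.87 ± 0.23 (adjusted p = 0.015). The ratio of *LAMP1* to *LAMP2* was 1.96, 1.28 and 1.75 in high-intake livers and 3.26, 2.54 and 2.77 in control livers, without overlap, and 0.956 to 1.89 in the 12 adipose libraries. *CTNS* was called higher in liver in all 4 comparisons, by 0.87 and 1.31 against AA and by 0.85 and 1.23 against SA in high-intake and control geese, the last with an adjusted p of 0.048 that was lost without any of the 3 geese. *GUSB* was called in 3, all but SA in control geese, with 1.08 ± 0.33 against AA in high-intake geese (adjusted p = 0.028).

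For the V-ATPase, the sectors were described apart. In liver against AA of high-intake geese, 5 of 7 V0 genes were called lower and none higher, while of 8 V1 genes 2 were called higher, *ATP6V1E1* and *ATP6V1D*, and 1 lower, *ATP6V1A*, beside 14.3% of all genes called higher and 41.7% called lower. In control geese 3 of 7 V0 genes were called lower (42.9%, near the 43.5% of all genes) and 4 of 8 V1 genes higher (beside 19.0%). Against SA, 4 of 7 V0 genes were called lower and 3 of 8 V1 genes higher in high-intake geese, and 1 of 8 and 2 of 8 in control geese, with the shares of all genes given above. The V0 genes called lower than in AA in both feeding groups were *ATP6V0A1*, *ATP6V0D1* and *ATP6V0C*. *ATP6V0D1* differed by -1.66 ± 0.21 in high-intake geese and -1.34 ± 0.18 in control geese, and *ATP6V0D2* by -2.10 ± 0.44 in high-intake geese (adjusted p = 0.0067). After centring, *ATP6V0A1* and *ATP6V0D1* were still called lower in both feeding groups, while *ATP6V0C* (-0.15 and -0.25) and *ATP6V1A* (-0.10 in high-intake geese) were not, and *ATP6V0A2* was called higher (0.75 and 0.62). *ATP6V1H*, which couples the sectors, was higher in liver by 1.24 ± 0.31 against AA in control geese (adjusted p = 0.0095), and *ATP6V1C2* by 1.06 ± 0.22 against SA in high-intake geese (adjusted p = 0.0051). The stator isoforms differed in rank between tissues. The ratio of *ATP6V0A1* to *ATP6V0A2*, which is free of library scale, was 0.758, 0.419 and 0.586 in high-intake livers and 0.398 to 0.443 in control livers. It was 1.59 to 2.40 in high-intake AA, 1.49 to 1.78 in control AA, 1.53 to 2.07 in high-intake SA and 1.19 to 1.41 in control SA, so that no liver overlapped any adipose library.

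**Figure D5:**
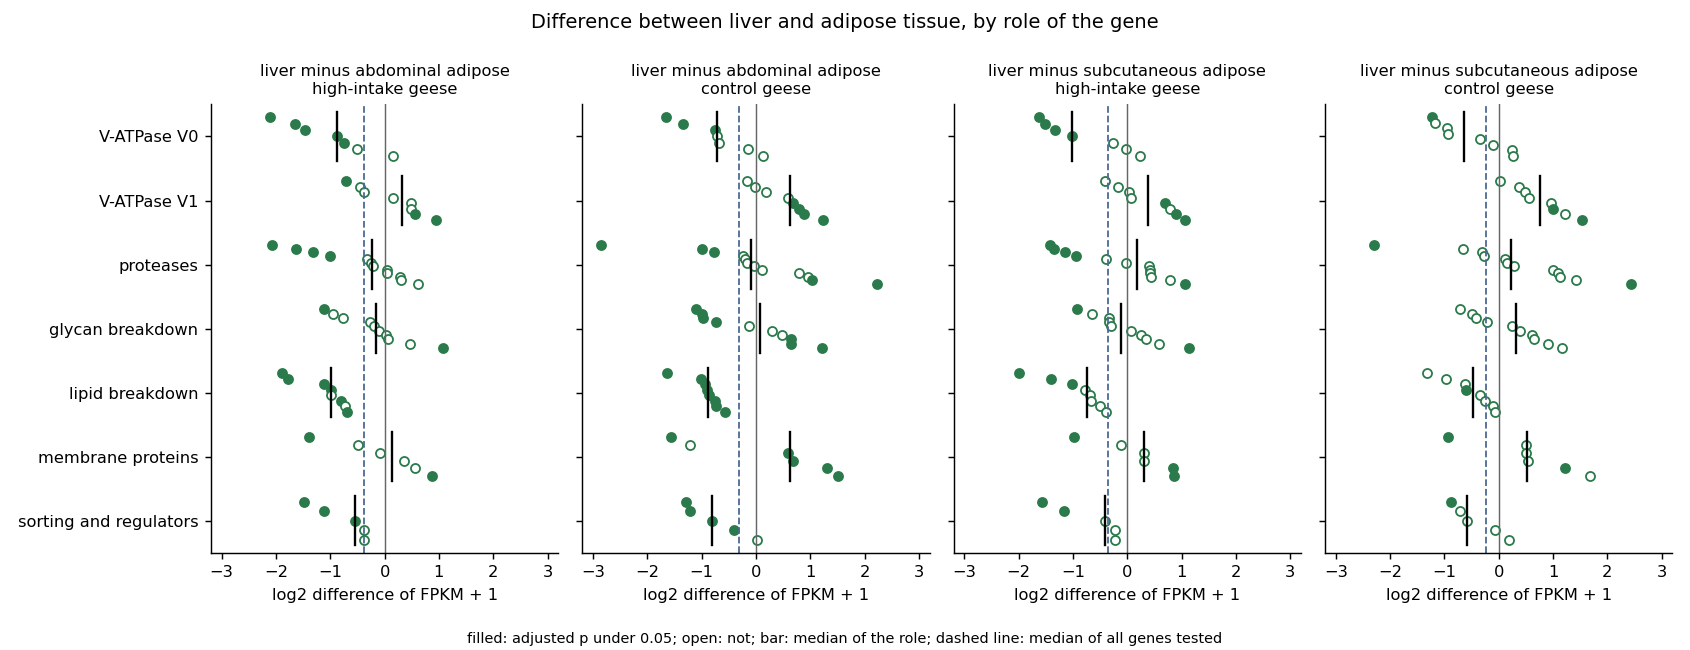
Log2 difference of FPKM + 1 between liver and each adipose tissue for the members, by role and feeding group. Each point is 1 gene (*GNPTAB* left out), filled where the adjusted p was under 0.05; short bars mark the median of the role and the dashed line the median of all genes tested. The medians of the V0 and lipid-breakdown genes lie left of the dashed line in every panel and that of the V1 genes right of it.

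Between the adipose tissues no member was called, in high-intake geese beside 0.0487% of all genes and in control geese beside 0.275%. At an unadjusted p under 0.05, 6 of 58 members had positive estimates of AA minus SA in high-intake geese (10.3%, beside 3.86% of all genes), *CTSB* (0.66 ± 0.19), *ATP6V0B* (0.48 ± 0.18), *ATP6V1B2* (0.48 ± 0.19), *CTSL* (0.48 ± 0.13), *MCOLN1* (0.42 ± 0.16) and *ATP6V1E1* (0.35 ± 0.13), and 2 of 58 in control geese (3.45%, beside 4.66%), *LAMP3* and *GAA*. With goose as a block, *LAMP3* was called higher in AA than in SA of control geese (adjusted p = 1.2e-05), while without it the adjusted p was 0.13. In the block fit the variance came from the mean-variance trend over all genes. The smaller p-value therefore does not measure the spread of *LAMP3* between the 3 geese. The *LAMP3* values were 19.5, 1.96 and 6.40 FPKM in AA and 2.09, 0.769 and 1.11 FPKM in SA of C1 to C3, higher in AA in each of the 3 geese. In high-intake geese they were 1.34, 29.1 and 0.635 FPKM in AA and 2.31, 2.99 and 0.682 FPKM in SA of T1 to T3, where T2 alone was clearly higher in AA. With goose as a block, 15 of 58 members were at an unadjusted p under 0.05 in high-intake geese, all higher in AA and none called. In control geese there were 3 of 58, all higher in AA. Among all genes, 1735 of 12327 in high-intake and 1610 of 13444 in control geese had such a p in either direction. Centring moved the median of all genes by 0.24 in control geese, and the number of members with a positive estimate was 49 of 58 before it and 35 after.

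Single geese ranked alike across tissues for some members. T3 had the lowest value of the 3 high-intake geese in liver, AA and SA at once for 11 of 57 members, *ARSB*, *ATP6V1G1*, *CTSH*, *CTSS*, *FUCA1*, *GAA*, *HEXA*, *IDUA*, *LAMP2*, *LAMP3* and *SGSH*, against 8.98% of all genes. T1 had the highest value in all 3 tissues for 7 members, *CTSL*, *LAMP1* and *GAA* among them, against 6.66% of all genes. In the control group, C1 was highest in all 3 tissues for 19 members, against 22.0% of all genes, and C2 lowest for 14, against 15.8%. *GAA* is an example, at 6.90, 5.98 and 2.46 FPKM in AA and 4.80, 4.66 and 1.37 FPKM in SA of T1, T2 and T3.

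Other genes of the lysosome and of its regulation were described by lists. Of 45 other lysosome genes 39 were in the table. In liver 1 was called higher, *OSTM1*, which partners a lysosomal chloride channel, at 25.1, 33.4 and 21.0 FPKM in high-intake and 8.85, 9.44 and 9.71 FPKM in control geese (log2 change 1.39 ± 0.20, adjusted p = 0.029). With *OSTM1*, 18 of 39 were higher without overlap in liver, beside 16.1% of all genes, and 1 was lower, beside 1808 of 11752 genes. The median of this list was 0.40 in liver, 0.41 in AA and 0.60 in SA, with 33, 35 and 38 of 39 positive and none called in AA or SA, beside medians over all genes of 0.03, 0.12 and 0.21. Autophagy genes, which build the vesicles that deliver cargo to lysosomes, had medians of 0.09, 0.15 and 0.25 over 33 or 34 genes tested of 40, near the medians of all genes, and none was called. In liver 7 of the 33 were higher without overlap, beside 16.1% of all genes, with the largest estimates for *STX17* (0.81 ± 0.23) and *VMP1* (0.60 ± 0.19). Lower without overlap were 2, *NBR1* (-0.71 ± 0.23) and *EPG5* (-0.15 ± 0.15), beside 1808 of 11752 genes. The list of mTORC1 at the lysosome and TFE factors, 20 of 28 found, had medians of 0.04, 0.14 and 0.37 and no call. Its members apart in liver, 2 of 20 beside 16.1% of all genes, were the amino acid sensor gene *SLC38A9* (0.52 ± 0.17) and *LAMTOR3* (0.40 ± 0.16). In AA 6 of 20 and in SA 3 of 20 were higher without overlap, beside 20.1% and 13.1% of all genes.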

How the data were processed

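The authors sequenced ribosome-depleted total RNA of 3 tissues from each of 6 geese and deposited, per mRNA and library, log2 values of FPKM + 1. The base of the logarithm is not given in the sources used here. It was read as 2, because FPKM times transcript kilobases then summed to 243191 to 788128 per library, while natural logarithms gave 1412039 or more, more than such sums can reach. The submitters' processing notes name CASAVA 1.8.2, TopHat2 2.12, Bowtie2 2.11 and Cufflinks 2.1.1. No counts were used here, so depth and counting error are unknown. Groups came from the sample labels. Values were tested in limma 3.58.1 (R 4.3.3) with a mean-variance trend, over mRNAs with a mean FPKM above 0.1 in the libraries compared, and p-values were adjusted over all mRNAs tested by the Benjamini-Hochberg method at 0.05. Groups that do not overlap have every value of 1 group above every value of the other. The procedure was tested on simulated data with 200 changed genes. The p-values rest on the spread between 3 geese a group, which limma moderates with the spread of other genes. In the feeding test of SA the moderated variance was that of the mean-variance trend alone, with infinite prior degrees of freedom. Standard errors and p-values there do not measure a gene's own spread between geese. The same held for AA against SA and liver against SA of control geese with goose as a block.

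The members and lists were chosen with earlier results of these data known, and their counts are descriptions. Full values were given for called members, for the 10 members with the largest changes without overlap per tissue, for the 5 called members with the largest differences in each direction per tissue comparison, and for others named by role. Tissues of 1 goose are paired by the labels. Values of the same goose correlated between AA and SA (r over genes 0.254 to 0.538). Between liver and an adipose tissue r was lower, 0.0316 to 0.264, and different geese with the same number reached 0.245 in SA. The goose block is printed where it changed a call and for the unadjusted counts of AA against SA. The feeding responses of tissues were compared with it. Alternatives were a pseudocount of 0.1, no filter or a mean FPKM above 1, libraries centred on their median, no trend, the replicate block, and each library or goose left out. Tables of other RNA classes and the authors' own comparisons were not used here. All members lie on scaffolds of the annotation without a chromosome, so no chromosome is given.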

Additional observations from a re-analysis of the deposited data

How the results depend on the processing

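Counts of called members depended on single libraries. In liver, high-intake against control gave 2 members, 1 without the filter on low values and 0 to 2 with 1 library left out. In AA the count was 0, and 0 to 7 with 1 library left out. In SA it was 1, with 0 without the filter, 0 without the trend and 0 to 3 with 1 library left out. Among all genes 257, 11 and 283 were called in liver, AA and SA. With 1 library left out these were 0 to 238, 0 to 245 and 4 to 715. Liver against AA in control geese gave 36, and 22 to 39 with 1 goose left out, and in high-intake geese 25, and 15 to 16. Liver against SA in control geese gave 9, with 5 without the filter, 28 after centring, 4 without the trend and 2 to 25 with 1 goose left out. In high-intake geese it gave 22, and 12 to 16 with 1 goose left out. Among all genes with 1 goose left out, liver against AA gave 5811 to 6884 in control and 4876 to 5711 in high-intake geese. Liver against SA gave 2239 to 7040 in control geese, and its counts of all genes in high-intake geese are not given here. AA against SA in control geese gave 0, and 1 with a mean FPKM above 1. The response of liver minus SA gave 0, and 0 to 1 with 1 goose left out, the 1 being *GNPTAB*, which is listed at 0 in 7 libraries. Members higher without overlap in SA numbered 23, and 23 to 43 with 1 library left out, an alternative chosen after seeing the data. The shares of all genes with 1 library left out are not given here. The cause was not tested.

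With the replicate block, AA against SA in control geese gave 1 member, and among all genes 386 against 37. Between feeding groups the replicate numbers are shared by different geese, whose same-numbered values correlated at -0.0876 to -0.0329 in liver, 0.0291 to 0.131 in AA and 0.0634 to 0.245 in SA, with 0, 1 and 2 of 3 numbers correlating best with their own. The replicate block gave 0 members in liver and 1 of all genes against 257, 0 in AA and 1 in SA, and the responses of liver minus AA and minus SA gave 0 and 0 members without it. The block changed no other count of called members by over 1.5 times. At an unadjusted p under 0.05, AA against SA in high-intake geese gave 15 members with it and 6 without. Of the 68 single-gene results with full values under the rule on named genes, none changed sign under an alternative, while smaller estimates outside it did after centring, as given above. Over the alternatives, 336 values of the feeding results stayed on their side of the threshold, 4 passed it and 20 lost it. All 20 fell on the calls of *CTSZ* and *CTSC* in liver and *GALC* in SA, the only feeding results that could lose one. Most of the 336 were uncalled genes that stayed uncalled, so they do not measure how stable the calls were. For the tissue results 297 stayed and 43 lost it. With 3 geese a group and no counts, differences near the spread between geese could not be resolved.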

Other observations

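Some genes carry no symbol of the list in the annotation but have product names of lysosomal proteins, and were read by product name after their values had been seen. The gene for a putative lysosomal acid lipase/cholesteryl ester hydrolase was at 36.6, 60.7 and 60.6 FPKM in high-intake livers, against 60.1, 48.4 and 48.2 FPKM in control livers, so the groups overlapped. In AA it was at 166, 144 and 108 FPKM in high-intake geese, against 64.4, 31.6 and 41.6 FPKM in control geese (log2 change 1.62, limma adjusted p = 0.098), and in SA at 160.4, 153 and 114 FPKM in high-intake geese, against 90.7, 22.2 and 62.1 FPKM in control geese (1.47, adjusted p = 0.33). High-intake values exceeded control values in both adipose tissues, with C2-SA the lowest. The gene for the proactivator polypeptide, the precursor of the saposins, was at 849.5, 584 and 607 FPKM in high-intake AA, against 468, 269 and 317 FPKM in control AA (0.97, adjusted p = 0.17), and at 672, 478 and 679 FPKM in high-intake livers, against 485, 462 and 478 FPKM in control livers. A lysosomal acid phosphatase-like gene was at 8.26, 6.50 and 6.31 FPKM in high-intake livers, against 3.27, 3.45 and 4.63 FPKM in control livers (0.75, adjusted p = 0.079). An acid lipase-like gene at another locus was at 13.8 FPKM in T3-L and at most 0.135 FPKM in the other livers.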
